A study of Homo sapiens with 8 samples.

Results

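The comparison described here is the control arm of a hairpin experiment: T47D cells carrying the control hairpin named Scr, after 48 h of doxycycline (day 2) against the same line without doxycycline (day 0). Its members were chosen by sample title, and they are 4 of the 8 arrays of the series, 2 from each day, read over the 21214 probe sets that have a gene name. T47D is an established line of human breast carcinoma with luminal, hormone receptor positive features. All the cells had been infected with a lentivirus that carried a conditional short hairpin RNA, either Scr or a hairpin against EglN2, and the other 4 arrays are the EglN2 hairpin line at the same days. The stated dose of doxycycline was 1 ug/ml, so the Scr day 2 cells had the drug and the induced control hairpin together, and the effects of the drug, of the hairpin and of 2 days in culture cannot be told apart. Whether the line was a clone or a pool, and whether replicates were separate cultures, is not said in the labels, so a p-value here reflects array-to-array spread alone, which may be technical.

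Doxycycline is a tetracycline antibiotic that switches on tetracycline-controlled promoters. It also binds the mitochondrial ribosome, which resembles that of bacteria, and slows the making of the proteins encoded in mitochondrial DNA. Cells under mitochondrial or amino acid stress make more of the transcription factor ATF4, which binds amino acid response elements and turns on genes for serine and asparagine synthesis, amino acid import and tRNA charging. Tetracyclines also bind metal ions and inhibit matrix metalloproteinases. A hairpin RNA can engage the RNA interference machinery and, as double-stranded RNA, the sensors that switch on interferon response genes. These are the reasons for some of the gene lists described here. Other lists, such as those of cell division and the centriole, have no such reason. All lists were chosen with earlier results of these data known.

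No gene passed the main limma fit over all 8 arrays, which had no replicate term. Every difference given is thus a measured value and not a called change. With limma, 0% of the 21214 probe sets passed at an adjusted p of 0.05, the lowest value being 0.0870. Before adjustment 2726 probe sets had a p under 0.05, 1588 with a positive and 1138 with a negative difference of day 2 minus day 0. Over 18417 genes, each read by 1 probe set, the share with an unadjusted p under 0.05 was 7.74% on the positive and 5.46% on the negative side. Both day 2 arrays lay above both day 0 arrays for 23.0% of genes and below them for 24.8%. With the prior variance allowed to follow the level, limma called 6 probe sets, 3 higher and 3 lower (smallest adjusted p 0.0323). With a replicate block it called 42, 31 higher and 11 lower, though no label ties the replicate numbers to a culture or day. The median difference was -0.01 on the log2 scale, the scale of every difference given here, and the median standard error was 0.123. Differences beyond 0.5 were more often positive, with 373 probe sets above 0.5 and 96 under -0.5. With 2 arrays a day, 0.333 is the smallest p that exact permutation could give, and such a test was left out.

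Markers were read to check the label. A mean level of at least 7 was found for 12 of 12 luminal markers, 5 of 10 measured basal and mesenchymal markers and 2 of 9 measured leukocyte and endothelial markers. Levels of different probe sets are not on a common scale, so these counts do not measure the share of a cell type. The luminal median was 12.2, from 7.97 for TFF1 to 14.1 for KRT18. The basal and mesenchymal markers had a median level of 7.0, with DCN lowest at 4.59 and ACTA2 highest at 12.1. Among leukocyte and endothelial markers, PTPRC was lowest at 4.2 and CD68 highest at 7.73. The median of this last list was 5.89 and 6.21 on the day 0 arrays and 5.85 and 5.97 on the day 2 arrays. ACTA2 read 12.81 and 10.80 on day 0 and 12.72 and 12.05 on day 2, and 13.33 and 11.05, then 13.21 and 12.43, in the EglN2 hairpin line. Replicate 1 was thus above replicate 2 in all 4 groups. EGLN2, the target of the hairpin in the other line, read 8.97 and 9.0 on day 0 and 8.81 and 8.90 on day 2 here, a difference of -0.13 (SE 0.11).

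Both Scr day 0 arrays deviated with level in the same way, replicate 1 more than replicate 2. For replicate 1 the median deviation from the 8-array mean was -0.0713 for probe sets with a mean level of 9 or more. It was 0.0713 for those between 5 and 7. For day 0 replicate 2 these values were -0.0288 and 0.0412. In the Scr comparison the median difference was -0.08 for the 5535 probe sets between 5 and 7 and 0.065 for the 6421 at 9 and over. After quantile normalization these medians were -0.0216 and -0.0025. Without day 0 replicate 1 they were -0.06 and 0.045, so leaving out that array did not remove the shift with level. List medians are therefore also given after quantile normalization where that moved them by more than 1.5 times. Leaving out day 0 replicate 2 gave 1012 probe sets above 0.5 and 254 under -0.5, and leaving out day 0 replicate 1 gave 303 and 183. Without day 2 replicate 1 the counts were 575 and 253. The count of probe sets with an unadjusted p under 0.05, 2726 on all arrays, was 1603 without day 0 replicate 1 and 1202 without day 2 replicate 2.

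**Figure D1:**
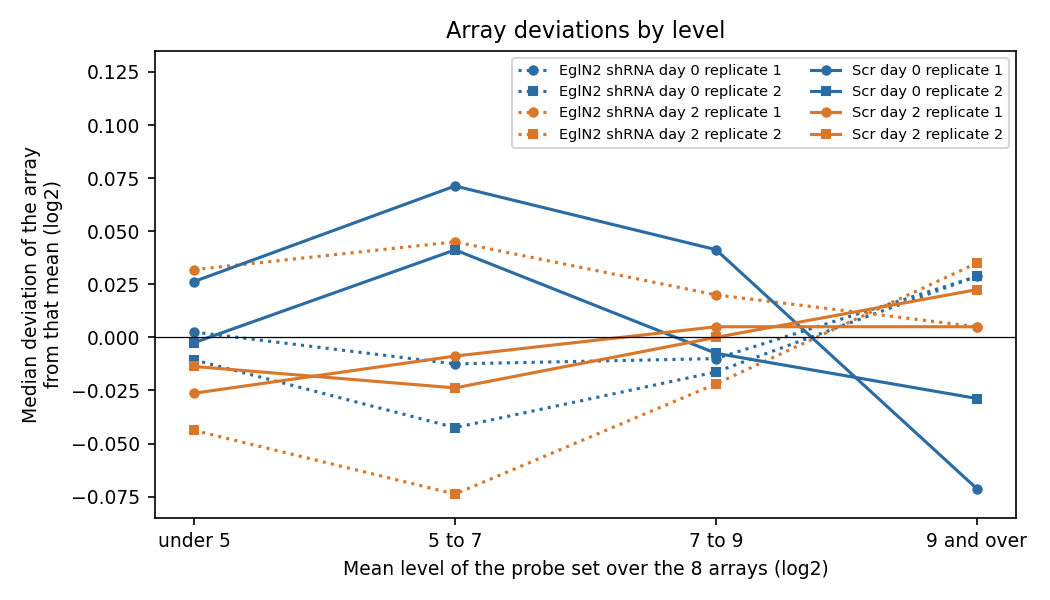
Median deviation of each array from the 8-array mean (y axis, log2) for probe sets grouped by their mean level (x axis, log2). Lines are arrays, solid for the Scr line and dotted for the EglN2 hairpin line, with blue for day 0 and orange for day 2. The array Scr day 0 replicate 1 lies highest at levels of 5 to 7, at 0.0713, and lowest at 9 and over, at -0.0713.

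The 12 genes with the largest positive moderated t were led by a secreted glycoprotein, a Rac regulator, a peroxidase and a glycogen enzyme. OLFML3, a secreted olfactomedin-family protein, read 8.78 and 8.88 on day 0 and 9.63 and 9.66 on day 2. Its day 2 arrays were nearly identical and lay well above day 0, a difference of 0.815 (SE 0.101, limma adjusted p = 0.0940), or 1.76-fold. ARHGAP15, an inhibitor of the small GTPase Rac, read 7.50 and 7.59 against 8.55 and 8.33. Its difference was 0.895 (SE 0.116). GPX8, a peroxidase of the endoplasmic reticulum, read 8.88 and 8.84 against 9.88 and 9.62, which made 0.89 (SE 0.116). PYGL, the glycogen phosphorylase best known from liver, read 8.63 and 8.83 against 9.72 and 9.70. At 0.98 (SE 0.131) it had the largest difference of these 12 genes, 1.97-fold.

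CRISPLD1, a cysteine-rich secreted protein, read 7.68 and 7.53 on day 0 against 8.48 and 8.47 on day 2, a difference of 0.87 (SE 0.119, limma adjusted p = 0.101). NUDT7, a peroxisomal enzyme that cleaves coenzyme A, read 7.96 and 8.18 against 8.87 and 9.14, a difference of 0.935. Replicates of CRISPLD1 lay closer together than those of NUDT7, and the days of both genes were separate. The serine synthesis enzyme PSPH read 9.56 and 9.45 against 10.22 and 10.26, a difference of 0.735 (SE 0.113, limma adjusted p = 0.145). Its second probe set, at 9.67 and 9.70 against 10.19 and 10.03, gave 0.425. The butyrophilin BTN3A2 differed by 0.81, the Wnt carrier WLS by 0.80, ABCC13 of the ABC transporter family by 0.765, the RNA-binding protein RBM11 by 0.74 and ABRAXAS1, a scaffold of a BRCA1 complex, by 0.73.

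On the negative side the smallest adjusted p belonged to PPP1R11, an inhibitor of protein phosphatase 1. It read 9.78 and 9.70 on day 0 and 8.75 and 8.91 on day 2, a difference of -0.91 (SE 0.105, 95% confidence interval -1.15 to -0.67, limma adjusted p = 0.0870). The platform lists PPP1R11 under several probe sets with identical values, which were counted as 1 gene. Other members of its phosphatase family did not go with it: the list of protein phosphatase 1 and its regulators had 9 positive and 14 negative differences and a median of -0.05 (-0.0762 after quantile normalization, -0.02 without day 0 replicate 1). CLDN6, a claudin of tight junctions in embryonic epithelium, read 5.60 and 5.71 against 4.81 and 4.98. That is a difference of -0.76 (SE 0.119) at a level near that of the leukocyte markers.

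Enzymes of drug and quinone metabolism were also among the genes that read lower. CYP1B1, a cytochrome of estrogen and hydrocarbon metabolism, read 11 and 10.92 on day 0 and 9.95 and 10.28 on day 2, a difference of -0.845 (SE 0.154, limma adjusted p = 0.193). NQO1, a quinone reductase, read 12.51 and 12.62 against 11.93 and 11.94, a difference of -0.63 (SE 0.101, limma adjusted p = 0.152). Both stand far above the dim genes in level, and neither gene's days overlapped. The rest of the 11 lower genes were dimmer. The sperm gene SPATA46 differed by -0.62, the placental phosphatase ALPP by -0.595 (-0.21 on its other probe set), the oocyte factor FIGLA by -0.565, LINC02878 by -0.515, AADACL4 by -0.735 and CT55, a cancer and testis antigen, by -0.505 (-0.32 on its other probe set). The highest value of any of these 6 probe sets was 7.31, for SPATA46, and at such levels the median probe set also read lower on day 2.

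**Figure D2:**
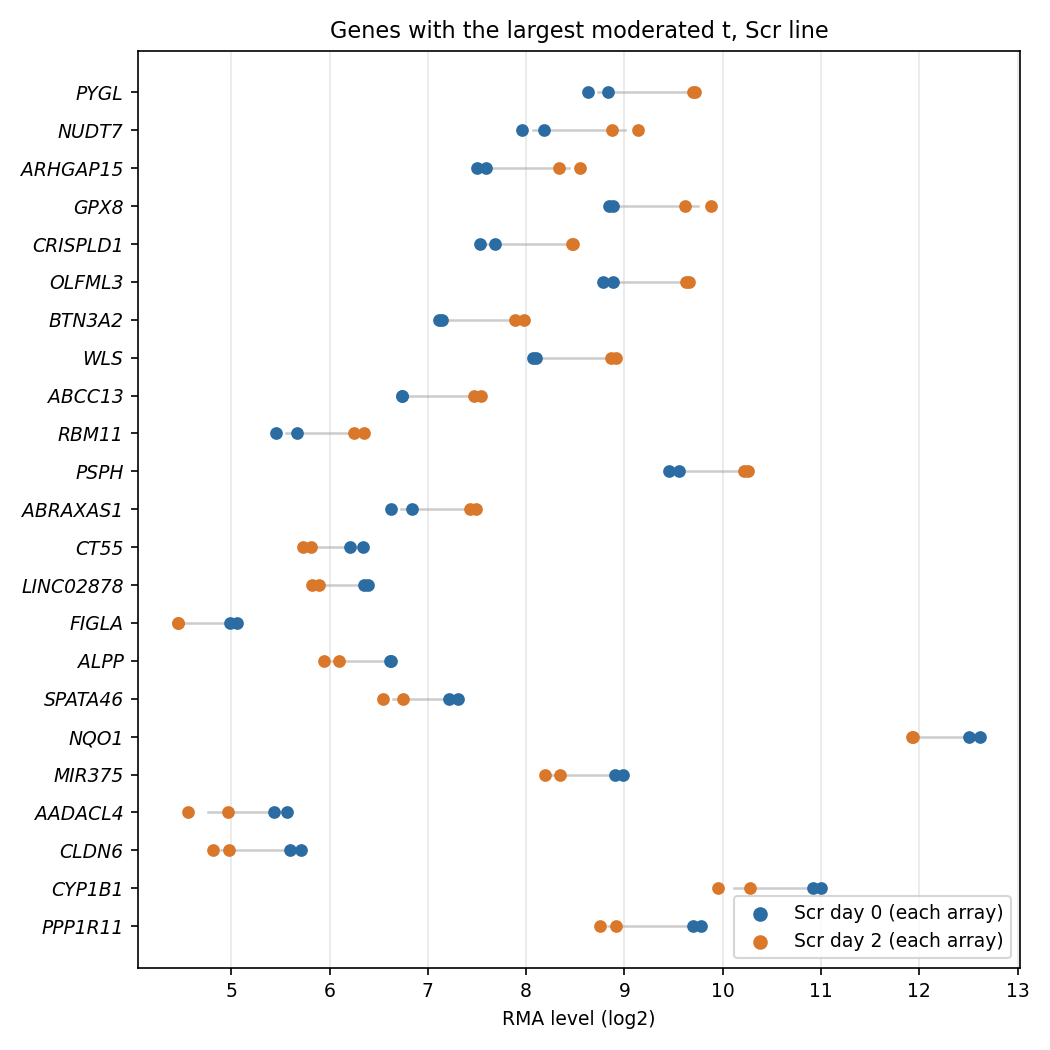
RMA level (x axis, log2) of the 12 genes with the largest positive and the 11 with the largest negative moderated t, each array a point, blue for day 0 and orange for day 2. The grey line joins the day means. The days overlap for none of these genes, since the rule required that, and PYGL moves farthest to the right (0.98) and PPP1R11 farthest to the left (-0.91).

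Differences beyond 1 were found for 10 genes, singled out after their values were seen, and most had a wide spread between arrays. SLC7A11, the cystine importer of the ATF4 and NRF2 programmes, read 6.94 and 8.18 on day 0 and 8.79 and 8.93 on day 2. The difference was 1.3 (SE 0.343, limma adjusted p = 0.260), with day 0 replicate 1 alone far below the other arrays. COL12A1, a collagen that coats fibrils, read 10.35 and 9.72 against 11.44 and 11.15, a difference of 1.26 (SE 0.216). The histone H4C4 read 10.18 and 10.72 against 11.20 and 12.29, a difference of 1.295 with the widest SE of the positive ones, 0.372. GPNMB, a melanosome and lysosome glycoprotein, read 6.84 and 8.36 against 6.53 and 6.65, a difference of -1.01 (SE 0.412) with day 0 replicate 2 alone far above the other arrays. The chemokine CCL4 read 5.07 and 5.54 against 4.35 and 4.10, a difference of -1.08. The protocadherin PCDHB6 (1.225), ANKRD30B (1.14), SNORD52 (1.05), RANBP3L (1.015) and TTC6 (1.015) complete the group. In SLC7A11, H4C4 and GPNMB replicate 2 was above replicate 1 in all 4 groups of the series.

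Genes of amino acid synthesis and tRNA charging read higher on day 2 as a group. Of 14 measured enzymes of serine synthesis and folate one-carbon metabolism, 11 had a positive difference and the median was 0.297. Both day 2 arrays were above both day 0 arrays for 10 of them, and 8 had an unadjusted p under 0.05, all positive. For comparison, 8744 of all 18417 genes had a positive difference. Of all genes 23.0% had day 2 wholly above day 0, and 7.74% were positive at an unadjusted p under 0.05. PHGDH, the first enzyme of serine synthesis, read 10.65 and 10.82 on day 0 and 11.38 and 11.30 on day 2, a difference of 0.605 (SE 0.107). PSAT1, the second enzyme, read 9.70 and 10.02 against 10.68 and 10.53, a difference of 0.745 (SE 0.148). With PSPH, the whole serine pathway was thus higher on each day 2 array than on either day 0 array.

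Folate enzymes work in the mitochondria or in the cytosol. The mitochondrial enzymes ALDH1L2 (0.70), MTHFD2 (0.41), SHMT2 (0.385) and MTHFD1L (0.26) were positive, and each had an unadjusted p under 0.05. ALDH1L2 read 8.66 and 8.29 against 9.26 and 9.09. Of their cytosolic counterparts, MTHFD1 differed by -0.005, ALDH1L1 by -0.055 and SHMT1 by 0.235. MTHFD1 read 11.60 and 11.67 on day 0 and 11.58 and 11.68 on day 2, so its days overlapped fully. The SHMT1 value was near that of mitochondrial MTHFD1L, and the mitochondrial and cytosolic members were not tested against each other.

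The other amino acid enzymes followed less evenly. ASNS, the asparagine synthetase, read 8.96 and 9.52 on day 0 against 10.21 and 9.80 on day 2, a difference of 0.765 (SE 0.187). PCK2, the mitochondrial PEP carboxykinase, read 8.10 and 8.11 against 8.68 and 8.64, a difference of 0.555 (SE 0.104). The median over the 11 measured enzymes was 0.18, with 8 positive; it was 0.085 without day 0 replicate 2, 0.095 without day 2 replicate 2 and 0.0984 after quantile normalization. The urea cycle enzyme ASL differed by -0.125, and the transsulfuration enzyme CTH by -0.105.

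Of 19 measured cytosolic tRNA synthetases, which load amino acids onto their tRNAs, 16 had a positive difference, 12 had day 2 wholly above day 0, and the median was 0.205. CARS1, for cysteine, read 9.52 and 9.65 against 10.10 and 10.14, a difference of 0.535 (SE 0.113). AARS1, for alanine, read 11.76 and 11.84 against 12.16 and 12.23, a difference of 0.395 (SE 0.099). TARS1 differed by 0.50, GARS1 and YARS1 by 0.405 each, while HARS1 (-0.06), KARS1 (-0.075) and FARSA (-0.095) were slightly negative. Of the 16 measured mitochondrial synthetases, encoded by other genes, 10 were positive with a median of 0.045 (-0.0163 after quantile normalization). Day 2 was wholly above day 0 for 5 of those 16, against 23.0% of all genes.

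The regulators of the response were mixed. Of the 23 measured, 18 were positive, 7 had a positive difference at an unadjusted p under 0.05 and 1 a negative one, and the median was 0.155 (0.0925 after quantile normalization). ATF4 itself read 11.31 and 11.50 on day 0 and 11.86 and 11.74 on day 2, a difference of 0.395 (SE 0.108). DDIT3, the stress factor also called CHOP, read 8.16 and 8.30 against 8.76 and 8.72, a difference of 0.51 (SE 0.144). The secreted glycoprotein STC2 (0.525), the mTORC1 inhibitor DDIT4 (0.42) and the stress protein NUPR1 (0.41) were positive too. ATF5 went the other way at -0.355, from 8.33 and 8.15 to 8.02 and 7.75. ATF3 (-0.065), the pseudokinase TRIB3 (-0.07) and the stress hormone FGF21 (-0.085) had overlapping days.

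Among 18 amino acid transporters 13 were positive, with a median of 0.133 that was 0.06 without day 0 replicate 1. Beside SLC7A11, the neutral amino acid importer SLC38A2 read 11.96 and 12.43 against 12.64 and 12.49, a difference of 0.37. SLC43A1 differed by 0.25. SLC7A5, the large neutral amino acid exchanger, read lower, at 12.53 and 12.43 on day 0 and 12.04 and 12.03 on day 2, a difference of -0.445 (SE 0.121). Its partner chain SLC3A2 differed by -0.06.

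Promoters of the members with the smallest p over the amino acid response lists together that hold the core of the amino acid response element are shown, because ATF4 is known to bind that element. ASNS is from the list of other amino acid enzymes, and AARS1 and GARS1 are cytosolic synthetases. The motif searched was TGATGNAA on both strands, in the 250 bases before each start site in the RefSeq promoters of GRCh38.p14, and it is in capitals. Each line is a 90-base window on the gene's own strand, with ASNS at chr7:97872428-97872517 (minus strand), AARS1 at chr16:70289645-70289734 (minus strand) and GARS1 at chr7:30594788-30594877 (plus strand).
ASNS: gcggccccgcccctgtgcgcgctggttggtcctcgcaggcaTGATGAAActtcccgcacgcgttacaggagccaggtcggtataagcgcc
AARS1: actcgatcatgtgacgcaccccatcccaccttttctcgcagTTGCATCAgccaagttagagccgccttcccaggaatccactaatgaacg
GARS1: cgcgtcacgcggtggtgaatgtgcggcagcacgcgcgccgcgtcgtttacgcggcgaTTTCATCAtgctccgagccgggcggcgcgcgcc
The core was found in 6 of 21 promoters of the ATF4 regulators, 3 of 16 of the cytosolic synthetases, 2 of 9 of the other amino acid enzymes, 1 of 11 of the serine and folate enzymes and 1 of 16 of the transporters. It was found in 3.12% of the 14239 measured genes with a promoter. A match is a run of letters and no proof of binding.

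Genes of cell division also read higher on day 2. Of 34 measured mitosis genes 33 had a positive difference, 28 had day 2 wholly above day 0 and 0 wholly below, and 17 had an unadjusted p under 0.05, all positive. Their median was 0.28, and 0.208 without day 0 replicate 1. Of all genes 23.0% had day 2 wholly above day 0 and 24.8% wholly below. NUSAP1, which bundles spindle microtubules, read 10.75 and 10.85 on day 0 and 11.21 and 11.20 on day 2, a difference of 0.405 (SE 0.104). The kinetochore motor CENPE read 7.91 and 8.07 against 8.45 and 8.40, a difference of 0.435 (SE 0.126). The spindle protein DLGAP5 (0.435), the hyaluronan-binding spindle protein HMMR (0.52) and the spindle pole protein ASPM (0.42) had days that did not overlap either. The best known proliferation markers had small differences, with MKI67 at 0.125, AURKA at 0.135, PLK1 at 0.125, AURKB at 0.02 and TPX2 at -0.055, and the days of each overlapped.

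Replication genes and histones were less stable between arrays. Of 40 measured genes of the G1/S transition and DNA replication, 31 were positive. Day 2 was wholly above day 0 for 20 of the 40, against 23.0% of all genes. The median was 0.158, but 0.04 without day 0 replicate 1, 0.08 without day 2 replicate 2, 0.262 without day 0 replicate 2 and 0.0887 after quantile normalization. RFC3, a subunit of the clamp loader, read 10.23 and 10.76 against 11.07 and 11.13, a difference of 0.605 (SE 0.159). Thymidine kinase TK1 read 11 on both day 0 arrays and 11.28 and 11.50 on day 2. The S phase regulators E2F1 (-0.15), E2F2 (-0.115) and CDC6 (-0.06) were negative.

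Of 43 measured replication-dependent histone genes 39 were positive, 31 had day 2 wholly above day 0 and 0 wholly below, and the median was 0.32. That median was 0.18 without day 0 replicate 1. Over all genes, day 2 was wholly above day 0 for 23.0% and wholly below for 24.8%. H2BC8 read 8.84 and 9.11 on day 0 and 9.53 and 9.62 on day 2, a difference of 0.60 (SE 0.142). The linker histone H1-5 read 12.20 and 12.48 against 12.75 and 12.82, a difference of 0.445. Histone genes of a cluster are near copies of each other, and how far their probes tell them apart was not tested.

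The promoters of DLGAP5 and HMMR are shown with the cell cycle homology region, the element bound by the complex that represses mitosis genes in resting cells. The motif searched was TTTGAA on both strands, in capitals wherever it occurs in the window. DLGAP5 lies at chr14:55191646-55191735 (minus strand) and HMMR at chr5:163460542-163460631 (plus strand), in GRCh38.p14.
DLGAP5: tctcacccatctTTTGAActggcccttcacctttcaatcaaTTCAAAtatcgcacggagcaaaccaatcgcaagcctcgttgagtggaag
HMMR: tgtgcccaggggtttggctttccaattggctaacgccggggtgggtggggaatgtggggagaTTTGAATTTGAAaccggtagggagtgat
It was found in 17 of 31 mitosis promoters (54.8%) against 14% of measured genes. The CCAAT box, searched as CCAAT on both strands, was found in 24 of the same 31 (77.4%) and in 35 of 39 histone promoters (89.7%), against 40.4% of measured genes.

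Genes of the centriole and of ciliary transport formed the other group with nearly all members positive. Of the 35 measured, 34 were positive, and the median was 0.25 (0.253 after quantile normalization). Day 2 was wholly above day 0 for 27 of them, against 23.0% of all genes. An unadjusted p under 0.05 was seen for 15, all positive. IFT88, a core part of the intraflagellar transport train, read 7.47 and 7.73 on day 0 and 8.18 and 8.21 on day 2, a difference of 0.595 (SE 0.134). IFT80, of the same train, read 9.36 and 9.75 against 10.17 and 10.18, a difference of 0.62 (SE 0.142). PLK4, the kinase that starts centriole duplication, read 7.85 and 8.30 against 8.65 and 8.86, a difference of 0.68. The BBSome subunits BBS7 (0.38) and BBS2 (0.41) were positive too, and IFT27, at -0.185, was the sole negative member.

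**Figure D3:**
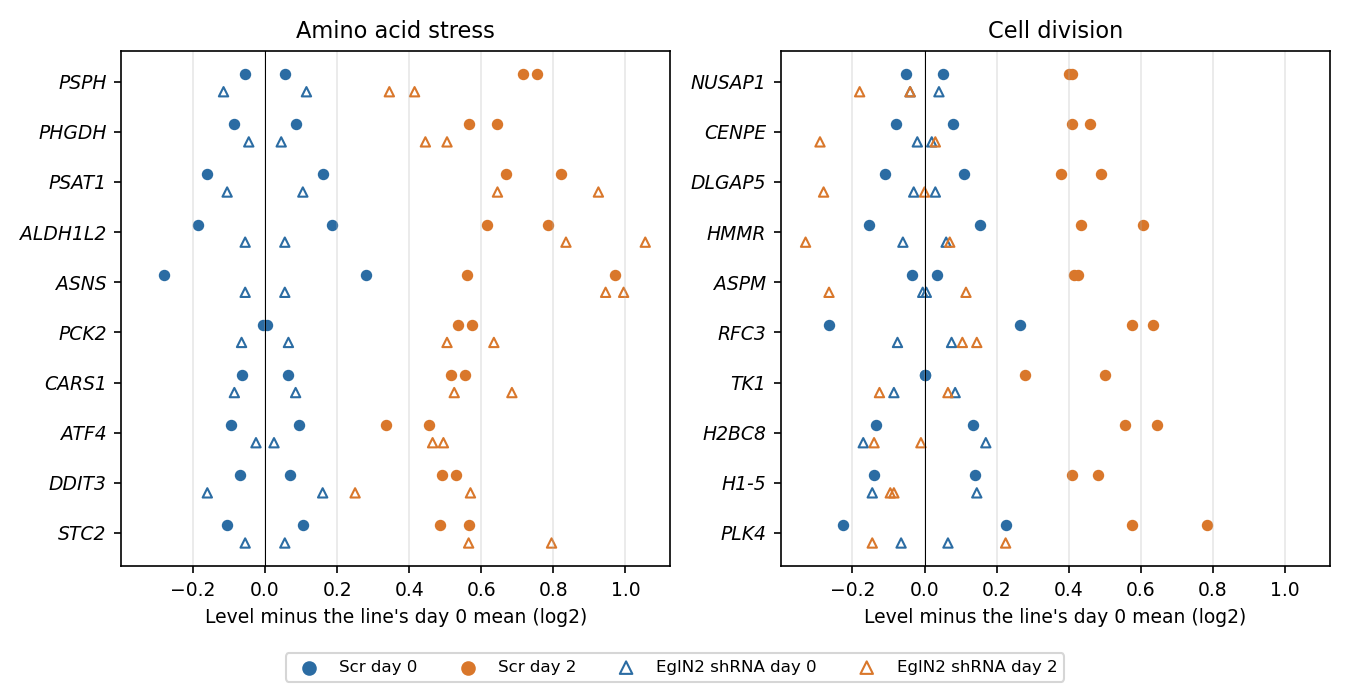
Level of each array minus the day 0 mean of its own line (x axis, log2) for genes of the amino acid response (left) and of cell division and the centriole (right), chosen after their values were seen. Filled circles are Scr arrays and open triangles EglN2 hairpin arrays, blue for day 0 and orange for day 2. The orange circles lie to the right of the blue ones for all 20 genes, while the orange triangles do so in the left panel and lie near or left of 0 for most genes of the right panel.

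Interferon response genes read higher on balance, with members on both sides. Of the 43 measured, 32 were positive and 11 negative, and the median was 0.145. Day 2 was wholly above day 0 for 21 and wholly below for 4, against 23.0% and 24.8% of all genes. PARP9, an ADP-ribosyltransferase family member of the antiviral response, read 7.69 and 8.13 on day 0 and 8.52 and 8.61 on day 2, a difference of 0.655 (SE 0.150). MX1, an antiviral GTPase, read 8.47 and 8.06 against 8.87 and 8.95, a difference of 0.645 (SE 0.165). HERC6 (0.525), IFI35 (0.41) and IFITM1 (0.44) were positive as well. IFITM3, which blocks the entry of viruses, read lower, at 7.79 and 7.41 against 7.12 and 7.02, a difference of -0.53 (SE 0.137). ISG15, a ubiquitin-like protein and a classical marker of the response, differed by -0.265, and RSAD2 by -0.21.

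Antigen presentation genes gave 9 positive differences of 12 measured and a median of 0.203 (0.133 after quantile normalization). The immunoproteasome subunit PSMB8 read 8.86 and 9.12 on day 0 against 9.46 and 9.66 on day 2, a difference of 0.57 (SE 0.144). PSMB9 differed by 0.68, but its day 0 arrays were 8.91 and 8.26. PSMB10, the third such subunit, read 8.84 and 8.73 against 8.41 and 8.26, a difference of -0.45. The RNA interference machinery itself had 7 positive and 7 negative members of 14 and a median of 0.0075 (-0.055 after quantile normalization, and -0.01 without day 0 replicate 2 to 0.06 without day 2 replicate 1), with AGO3 the sole member at an unadjusted p under 0.05 (0.30).

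The promoters of PARP9 and IFITM3, whose genes differed in opposite directions, both hold the core of the interferon-stimulated response element, searched as GAAACNGAA on both strands and shown in capitals. PARP9 lies at chr3:122564301-122564390 and IFITM3 at chr11:320861-320950, both on the minus strand of GRCh38.p14.
PARP9: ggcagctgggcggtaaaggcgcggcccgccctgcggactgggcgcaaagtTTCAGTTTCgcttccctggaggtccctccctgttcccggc
IFITM3: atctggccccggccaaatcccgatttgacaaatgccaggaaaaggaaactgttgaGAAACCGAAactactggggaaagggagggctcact
The core was found in 16 of 34 promoters of the list (47.1%) and in 1.86% of measured genes.

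Targets of the hypoxia-inducible factors and matrix genes had positive leaders over a middling median. Of 34 HIF targets 23 were positive, with a median of 0.10 (0.0377 after quantile normalization). Day 2 was wholly above day 0 for 14 and wholly below for 7, against 23.0% and 24.8% of all genes. P4HA2, a prolyl hydroxylase of collagen, read 8.33 and 8.45 on day 0 and 8.98 and 9.06 on day 2, a difference of 0.63 (SE 0.103). PDK1, the kinase that restrains pyruvate dehydrogenase, read 8.40 and 8.75 against 9.15 and 9.39, a difference of 0.695 (SE 0.144). P4HA1 (0.525), the glycolytic enzymes ALDOC (0.605) and PFKFB3 (0.635) and the mitophagy receptor BNIP3L (0.40) were positive. Hexokinase HK2, at -0.20, and BHLHE40, at -0.275, were negative. The 9 measured oxygen sensors and HIF subunits had 4 positive members and a median of -0.02, which was -0.085 without day 0 replicate 1, -0.04 without day 0 replicate 2, -0.035 without day 2 replicate 1 and -0.0512 after quantile normalization.

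Of 29 measured collagens, collagen enzymes and matrix genes 18 were positive, with a median of 0.10 that was 0.035 without day 0 replicate 2 and 0.17 without day 0 replicate 1. Apart from COL12A1, CRISPLD1 and OLFML3, the members that led were enzymes that modify collagen: P4HA2, P4HA1 and PLOD2, which read 10.96 and 11.41 against 11.70 on both day 2 arrays. SPARC (-0.34) and COL5A1 (-0.185) were negative. Among 24 metalloproteinases and their inhibitors 19 were negative, and the median was -0.143, at -0.0903 after quantile normalization. Day 2 was wholly below day 0 for 11 and wholly above for 3, against 24.8% and 23.0% of all genes. The median level of the list was 6.56, and named probe sets between 5 and 7 had a median difference of -0.08. In the EglN2 hairpin line, with the same drug, 13 of the 24 were positive and the median was 0.005. The inhibitor TIMP1 read 8.84 and 8.83 on day 0 and 8.37 and 8.52 on day 2, a difference of -0.39 (SE 0.103). TIMP3 differed by -0.32 and MMP16 by -0.42, while ADAM9, a membrane protease of higher level, read 11.52 and 11.71 against 11.92 and 11.87.

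Other groups read lower. The 8 measured genes of the aryl hydrocarbon receptor, a sensor of planar ring compounds, and its CYP1 targets had 6 negative differences and a median of -0.20, or -0.09 without day 0 replicate 1. Beside CYP1B1 and NQO1, CYP1A1 differed by -0.26 at a low level, 5.99 and 6.06 against 5.70 and 5.83. The receptor AHR differed by -0.06. The repressor TIPARP, another target of the receptor, differed by 0.05. Antioxidant genes of NRF2 gave 15 negative members of 23 and a median of -0.14, which was -0.03 without day 0 replicate 2 and -0.09 without day 2 replicate 2, and SLC7A11 stood against the trend.

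MYC and genes of ribosome biogenesis had 23 negative members of 30, with 16 wholly below day 0 on day 2 and 0 wholly above. Their median was -0.113, and it was -0.19 after quantile normalization. Over all genes 24.8% were wholly below and 23.0% wholly above. MYC read 10.15 and 9.69 on day 0 and 9.48 and 9.22 on day 2, a difference of -0.57 (SE 0.189). RRP12, a factor of ribosome export, differed by -0.285 and the spermidine synthase SRM by -0.33. Ribosomal proteins of the cytosol, the products of that pathway's end, had 30 of 53 positive and a median of 0.035, which was -0.0191 after quantile normalization and ranged from 0.01 (without day 2 replicate 1) to 0.055 (without day 2 replicate 2) with single arrays left out.

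Immediate-early genes gave 21 negative members of 27 and a median of -0.175, which was -0.085 without day 0 replicate 1 and -0.105 without day 2 replicate 2. IER3, a survival gene, read 10.13 and 10.23 on day 0 and 9.71 and 9.64 on day 2, a difference of -0.505 (SE 0.113). The phosphatase DUSP6 opposed the list, at 7.30 and 7.37 against 7.94 and 7.98, a difference of 0.625 (SE 0.164). JUN read 8.94 and 7.97 on day 0, and CCN1 9.49 and 8.20, each with day 0 replicate 1 the higher. Of 22 TGF-beta, ID and SMAD genes 15 were negative, with a median of -0.16 that was -0.0725 without day 0 replicate 1. ID3, an inhibitor of differentiation factors, differed by -0.33, and SKIL, a SMAD corepressor, by 0.56.

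The cytosolic heat shock chaperones had a median of -0.025 with 12 positive and 16 negative of 29. Probe sets shared by HSPA1A and HSPA1B were outside the list, and those called in the replicate block fit differed by -0.77 to -0.79. In the EglN2 hairpin line the list had 4 of 29 positive and a median of -0.155. The Scr line median was 0.005 without day 0 replicate 2, -0.09 without day 0 replicate 1, -0.055 without day 2 replicate 1 and -0.0959 after quantile normalization. HSPH1, an exchange factor for HSP70, read 11.32 and 10.89 on day 0 and 10.53 and 10.18 on day 2, a difference of -0.75 (SE 0.206). DNAJA1, an HSP70 partner, read 10.72 and 10.67 against 10.32 and 10.16, a difference of -0.455 (SE 0.117). DNAJB1, a partner of the same kind, read 11.31 and 11.25 against 11.17 and 10.74, a difference of -0.325. The chaperonin subunits CCT2 (0.015) and CCT8 (0.02) had overlapping days. The promoters of DNAJA1 and DNAJB1 hold the heat shock element core, searched as GAANNTTC, which is its own reverse complement. They lie at chr9:33025034-33025123 (plus strand) and chr19:14518398-14518487 (minus strand) in GRCh38.p14, with the core in capitals.
DNAJA1: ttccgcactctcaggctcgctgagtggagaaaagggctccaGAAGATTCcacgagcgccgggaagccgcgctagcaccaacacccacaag
DNAJB1: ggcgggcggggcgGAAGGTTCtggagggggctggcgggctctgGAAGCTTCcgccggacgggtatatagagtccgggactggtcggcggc
The core was found in 12 of 25 promoters of the list (48.0%) and in 6.36% of measured genes.

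The genes of the mitochondrial ribosome, which doxycycline binds, differed little. Of 48 measured proteins of the large subunit 28 were positive, with a median of 0.0175, and of 26 of the small subunit 12 were positive, with a median of -0.01. MRPL2 read 10.34 and 10.27 on day 0 and 10.52 and 10.69 on day 2, a difference of 0.30, and MRPL23 read 10.75 and 10.85 against 10.52 on both arrays, a difference of -0.28. Nuclear-encoded subunits of respiratory complex I had 18 of 34 positive and a median of 0.0125, with NDUFS1 at 0.30 and NDUFA1 at -0.46. Those of complexes II to V had 15 of 35 positive and a median of -0.045. Mitochondrial chaperones and proteases had 13 of 16 positive at a median of 0.05, led by TRAP1 (0.255). After quantile normalization the medians of these 5 lists, in the order given, were -0.0462, -0.045, -0.0652, -0.115 and -0.0212, all shifted down. With single arrays left out they ranged from -0.0225 (without day 0 replicate 1) to 0.0575 (without day 0 replicate 2) for the large subunit and from -0.025 to 0.02 for the small one, with the same 2 arrays at the ends. Complex I ranged from -0.025 (without day 0 replicate 1) to 0.0275 (without day 2 replicate 1). Complexes II to V ranged from -0.05 (without day 0 replicate 1) to -0.015 (without day 2 replicate 2), and the chaperones from 0.0375 (without day 2 replicate 2) to 0.115 (without day 2 replicate 1). The 13 genes encoded in mitochondrial DNA were listed, and 0 of them had a named probe set.

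Metal carriers, listed because the drug binds metal ions, were mostly positive. Whether that binding bears on these values was not tested. Of 27 metallothioneins and zinc carriers 22 were positive, with a median of 0.115. MT2A read 11.43 and 11.42 on day 0 and 11.72 and 11.71 on day 2, a difference of 0.29 (SE 0.119). Of 15 iron genes 11 were positive, with a median of 0.155 that was 0.075 without day 0 replicate 2, 0.085 without day 2 replicate 2 and 0.0875 after quantile normalization. ACO1, the iron regulatory protein, read 9.49 and 9.56 against 9.90 and 9.99, a difference of 0.42 (SE 0.100), and SLC11A2, the iron importer DMT1, differed by 0.395.

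Some lists held genes on both sides or stayed near the median of all genes, while the keratins were nearly all negative. Of 28 estrogen receptor targets 17 were positive, yet TFF1, the classical target, read 8.19 and 8.42 on day 0 and 7.69 and 7.59 on day 2, a difference of -0.665 (SE 0.141). SERPINA1, another target, read 8.84 and 9.04 against 9.67 and 9.61, a difference of 0.70 (SE 0.118). Of 13 keratins 12 were negative, with KRT7 at -0.565 and KRT23 alone positive at 0.58. The keratin median was -0.09, and in the EglN2 hairpin line 6 of the 13 were positive with a median of -0.005. Cholesterol synthesis had 15 of 19 positive and a median of 0.14 (0.055 without day 0 replicate 1, 0.215 without day 2 replicate 1, 0.075 without day 2 replicate 2, 0.0631 after quantile normalization), with the lipid carrier STARD4 at 0.435 and LSS at 0.41. The p53 targets had 13 of 21 positive, among them CCNG1 at 0.625 and TNFRSF10B at 0.335.

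**Figure D4:**
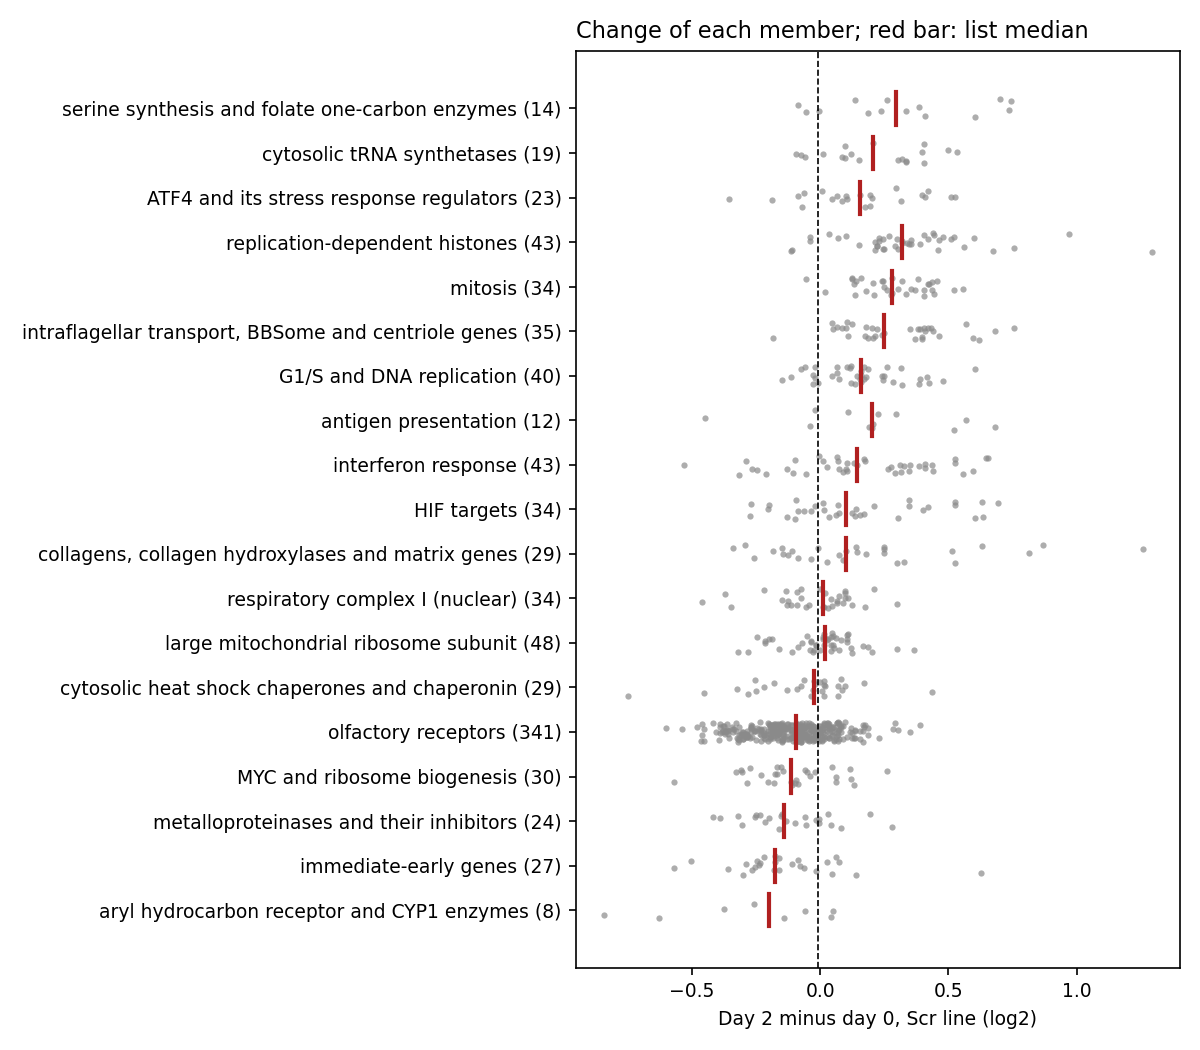
Day 2 minus day 0 in the Scr line (x axis, log2) for every measured member of 19 gene lists (y axis, number of members in brackets), each grey point a gene and each red bar the list median. The dashed line marks the median of all genes, -0.01. The medians run from 0.32 for histones to -0.20 for the aryl hydrocarbon receptor list, and single members of most lists lie on both sides of the dashed line.

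MicroRNA genes were measured by 174 probe sets, and RefSeq held a mature sequence for 164 of them. The 5 with the smallest p are MIR375, MIR140, MIR410, MIR125A and MIR15B, and the mature sequences of both arms are shown with the seed (bases 2 to 8) in capitals, because the seed decides what a microRNA pairs with. The MIR375 pair lies at chr2:219001648-219001669 and chr2:219001682-219001704 on the minus strand of GRCh38.p14.
hsa-miR-375-3p: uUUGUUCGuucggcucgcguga
hsa-miR-375-5p: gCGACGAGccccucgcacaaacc
hsa-miR-140-5p: cAGUGGUUuuacccuaugguag
hsa-miR-140-3p: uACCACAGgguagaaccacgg
hsa-miR-410-5p: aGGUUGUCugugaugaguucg
hsa-miR-410-3p: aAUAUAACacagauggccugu
hsa-miR-125a-5p: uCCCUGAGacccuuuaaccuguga
hsa-miR-125a-3p: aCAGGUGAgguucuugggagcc
hsa-miR-15b-5p: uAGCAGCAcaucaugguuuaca
hsa-miR-15b-3p: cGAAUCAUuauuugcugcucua
These 10 sequences have 10 different seeds, so none of the 5 genes share one. The probe sets read the transcript of the gene, and the amount of mature microRNA was not measured.

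MIR375, a microRNA abundant in luminal breast cells, was the brightest of the 5. It read 8.90 and 8.99 on day 0 and 8.34 and 8.19 on day 2, a difference of -0.68 (SE 0.104, limma adjusted p = 0.145). MIR140 read 5.13 and 5.20 against 4.65 and 4.66, a difference of -0.51, and MIR125A 6.33 and 6.18 against 5.70 and 5.63, a difference of -0.59. MIR410 and MIR15B read higher on day 2, by 0.43 and 0.535, at levels under 4.5. Of all 174 microRNA genes 62 were positive and 112 negative, with a median of -0.06, which was 0.005 without day 0 replicate 1, -0.10 without day 0 replicate 2 and -0.0278 after quantile normalization.

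Small nucleolar RNAs, which guide the modification of ribosomal RNA, tended the other way. Of 115 of the C/D box kind 74 were positive with a median of 0.085 (0.02 without day 2 replicate 2), and of 61 of the H/ACA kind 41 were positive with a median of 0.065. SNORD52 read 6.70 and 7.10 on day 0 and 7.70 and 8.20 on day 2. SNORA22 read 8.49 and 9.19 against 9.64 and 9.78, a difference of 0.87 (SE 0.254). SNORD15B, far brighter, read 12.02 and 11.89 against 11.64 and 11.21, a difference of -0.53.

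The 341 olfactory receptor genes, which breast cells are not known to use, gave a view of dim probe sets. Their median level was 5.12, and 78 of them were positive and 259 negative, with a median of -0.095. Day 2 lay wholly below day 0 for 116 of them and wholly above for 14, against 24.8% and 23.0% of all genes. After quantile normalization the median was -0.0419. In the EglN2 hairpin line the median of the same genes was 0. OR7D4 read 7.57 and 7.71 on day 0 and 7.17 and 7.20 on day 2 in the Scr line, a difference of -0.455, and its difference in the other line was 0.445. A small negative difference was thus the usual reading of these genes in the Scr line. It does not hold for every dim group, since the C/D box RNAs, with a median level of 6.16, were mostly positive. Over all named probe sets with a mean level under 5 the median was -0.035, and -0.0058 after quantile normalization.

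The EglN2 hairpin line had the same drug for the same time, and it shows which of these differences also appeared with another hairpin. The lines share no arrays. Across the 21214 probe sets the day 2 minus day 0 differences of the lines had a Pearson correlation of 0.146, given as a description, since probe sets are not independent. Of the 1588 probe sets positive at an unadjusted p under 0.05 in the Scr line, 65.8% were positive in the other line, against 50.6% of all tested. Of the 1138 negative ones, 52.9% were negative in the other line, against 47.8% of all. The difference of the differences, tested in the same limma fit, had 0% of probe sets at an adjusted p under 0.05 and a smallest adjusted p of 0.165; with the prior variance following the level, limma called 2. Over genes, an unadjusted p under 0.05 was seen for 4.09% with the Scr line more positive and for 3.14% with it more negative.

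All 12 of the higher genes had a positive difference in the EglN2 hairpin line as well, and 9 of the 11 lower genes a negative one. Some of these signs rest on values within their SE of 0. There FIGLA was at -0.02 (SE 0.104), SPATA46 at -0.025 (SE 0.111), LINC02878 at -0.025 (SE 0.099) and RBM11 at 0.08 (SE 0.118). The same holds for ABRAXAS1, at 0.105 (SE 0.113), CRISPLD1, at 0.02 (SE 0.119), and PPP1R11, at -0.02 (SE 0.105), in that line. PYGL, at 0.98 in the Scr line, was at 0.875 there, and ARHGAP15 was at 0.895 and 0.815. CYP1B1 was at -0.845 and -0.89, and NQO1 at -0.63 and -0.555. The values of these 4 genes were close in size in the lines. CRISPLD1 was at 0.87 and 0.02, with an unadjusted p of 0.000581 for the difference between the lines and an adjusted p of 0.596 (limma). PPP1R11 was at -0.91 and -0.02 (unadjusted p = 0.000166, limma adjusted p = 0.587). CLDN6 had opposite signs, at -0.76 and 0.325 (unadjusted p = 8.9e-05, limma adjusted p = 0.472). In the EglN2 hairpin line CLDN6 read 5.03 and 5.09 on day 0 and 5.27 and 5.50 on day 2, so the lines were already apart on day 0, with the Scr line higher, and apart the other way on day 2. An unadjusted p under 0.05 for the difference between the lines was seen for 7 of the 12 and 8 of the 11, all chosen for being large in the Scr line, and 0 of them passed the adjustment.

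**Figure D5:**
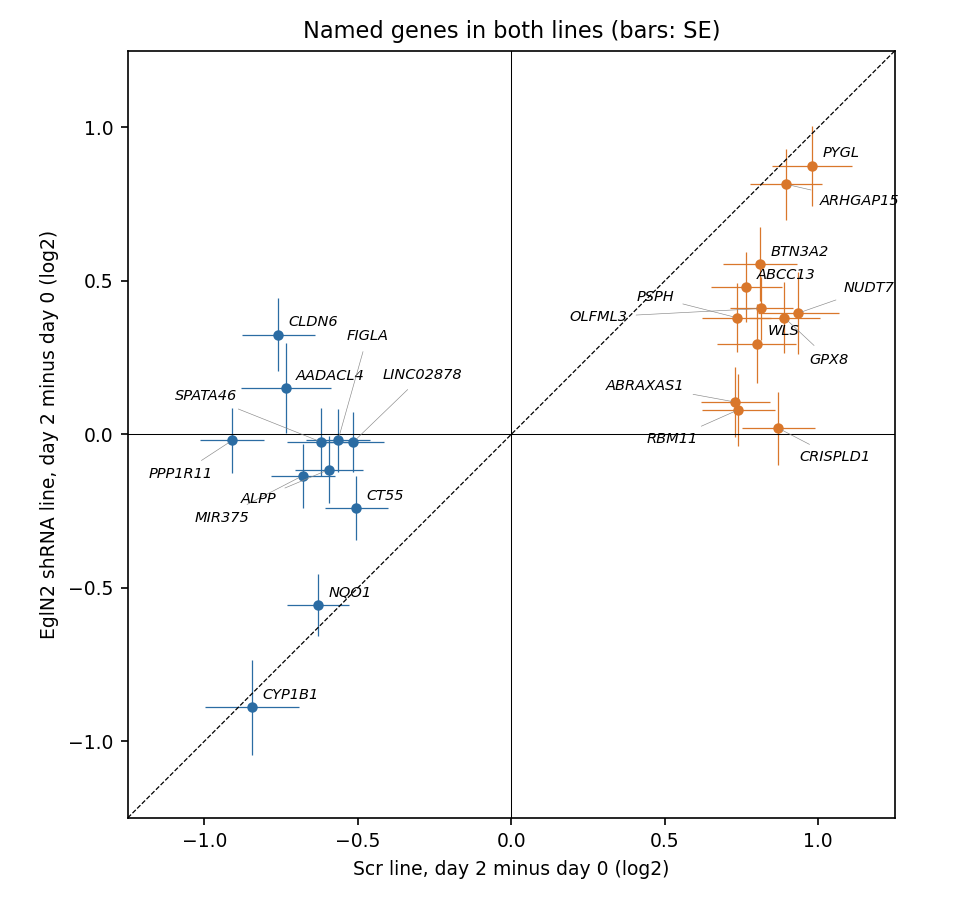
Day 2 minus day 0 in the Scr line (x axis, log2) against the same in the EglN2 hairpin line (y axis, log2) for the 12 higher (orange) and 11 lower (blue) genes of the Scr line, with bars of 1 SE in each direction. The dashed line marks equal differences. PYGL, ARHGAP15, NQO1 and CYP1B1 lie near it, while CRISPLD1 (0.02) and PPP1R11 (-0.02) lie near 0 on the y axis and CLDN6 (0.325) above it.

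Gene groups were compared by their medians and counts, with no test of a list. The serine and folate enzymes had a median of 0.297 in the Scr line and 0.212 in the EglN2 hairpin line, the cytosolic synthetases 0.205 and 0.175, and the ATF4 regulators 0.155 and 0.16. ASNS was at 0.765 and 0.97, and ATF4 at 0.395 and 0.48. In these 3 lists together 1 member had an unadjusted p under 0.05 for a larger difference in the Scr line and 0 for a smaller one. The aryl hydrocarbon receptor list had medians of -0.20 and -0.235.

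For mitosis genes the medians were 0.28 in the Scr line and -0.09 in the EglN2 hairpin line, where 7 of 34 were positive. The unadjusted p for the difference between the lines was under 0.05 for 11 of the 34, all with the Scr line more positive, against 4.09% of all genes. Replication genes had medians of 0.158 and -0.0725, and 6 of 40 such members. Interferon response genes had medians of 0.145 and 0.05, and 5 of 43. Histones had medians of 0.32 and 0.02 and the centriole and cilium list 0.25 and 0.115, with 3 of 43 and 3 of 35. These are small counts, to be read against the 4.09% of all genes. The median difference between the lines was 0.30 for histones and 0.215 for the centriole and cilium list, against 0.345 for mitosis genes. No single member passed the adjustment over all probe sets.

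The lines did not start from the same levels. On day 0, 21 of the 34 mitosis genes read lower on both Scr arrays than on both EglN2 hairpin arrays, and 1 read higher on both, against 4179 and 4202 of all 18417 genes. The median of the Scr line minus the EglN2 hairpin line on day 0 was -0.21 for these genes. NUSAP1 read 10.75 and 10.85 on day 0 in the Scr line and 11.15 and 11.07 in the other, and the Scr day 2 arrays read 11.21 and 11.20. CENPE read 7.91 and 8.07 on Scr day 0 against 8.41 and 8.37, and 8.45 and 8.40 on Scr day 2. The day 2 level of both genes in the Scr line was thus close to the level of the other line without doxycycline. Measured against that same level, the median of the mitosis genes on Scr day 2 was 0.0875.

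The other groups that read higher in the Scr line differed in how far its day 0 arrays lay under those of the EglN2 hairpin line. The day 0 median of the Scr line minus the EglN2 hairpin line was -0.235 for the centriole and cilium list, with 23 of 35 lower on both Scr arrays, and on Scr day 2 the median against that level was 0.025. It was -0.155 and then 0.05 for the cytosolic synthetases, -0.15 and then 0.158 for the serine and folate enzymes, and -0.09 and then 0.23 for the histones. Over all genes the medians were -0.005 and 0.005. How much of each difference in the Scr line goes with its day 0 level was not tested.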

How the data were processed

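The arrays were of the Affymetrix type Human Gene 1.0 ST. The authors deposited 1 log2 level for each probe set and array. The submitters' processing notes name RMA and Affymetrix Expression Console, with versions not given in the sources used here. The method compresses differences of dim genes. Values were used as deposited. Of 33297 probe sets, 19460 have 1 gene name in the platform table, 1754 several and 12083 none; 19429 single names were updated through RefSeq (GRCh38.p14). A model of 4 group means over the 8 arrays was fitted by limma 3.58.1, run in R 4.3.3 (4 residual and 5.53 prior degrees of freedom), two-sided, with Benjamini-Hochberg adjustment over 21214 named probe sets and a threshold of 0.05. The single-gene probe set with the highest mean stood for a gene in lists. Named were the 12 largest moderated t in each direction among single-gene probe sets whose days do not overlap, and up to 5 members of a list by p, with others as values. Members, lists and rules were chosen with earlier results of these data known. Of probe sets tested, 703 share all values with another. The fit was tested on simulated data, in 10 runs that each planted 200 changes among 21214 probe sets. In the Scr comparison 84.4% of changes of 0.7 and 99.4% of changes of 1 were recovered, shares that depend on how many probe sets change. Noise in the runs was independent between arrays, with no shared replicate or array effect. The shares therefore do not measure what the real arrays could detect, where 10 differences beyond 1 gave 0 calls. Alternatives were the arrays fitted, a replicate block, the prior variance, a level filter, the probe sets used, scaling and leaving out each array.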

Additional observations from a re-analysis of the deposited data

How the results depend on the processing

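In 427 alternatives for the named genes 0 signs were reversed, but most of these could not have reversed one. Many settings leave the Scr difference as it is. Leaving out 1 array cannot turn the sign of a gene whose days do not overlap. Only median centring, quantile normalization and cyclic loess could have done so. With the prior variance following the level, limma called 6 probe sets in the Scr comparison in place of 0, 3 higher and 3 lower, with 5 of the 24 named genes among them, and 2 in the difference between the lines. Apart from the replicate block, the other settings called 0 in both comparisons, with a smallest adjusted p for the Scr comparison between 0.0509 and 0.547 (limma). The difference between the lines could not be fitted to the 4 Scr arrays alone. Same-numbered arrays were checked for pairing by correlating their deviations from the group means, which gave 0.0981 for the Scr days and 0.163 to 0.271 between other groups. With 2 pairs per comparison and no label that ties the numbers to a culture or day, the arrays were not treated as pairs; a fit with replicate block called 42 probe sets, 31 higher and 11 lower, with 14 named genes among them.

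Of 1082 alternatives for list medians 105 moved by more than the spread between replicates. Of these, 26 were after quantile normalization, 22 after cyclic loess (chosen after seeing the data), 48 without 1 array and 9 elsewhere. Many of the 1082 could not move a median, since they leave the Scr differences as they are. Those are the settings of variance, block or probe sets tested, and those without an EglN2 hairpin array. The share that moved therefore understates how far the medians depend on the processing. The median of the MYC list was -0.19 after quantile normalization and -0.178 after cyclic loess. That of the metalloproteinases was -0.0903 and -0.0859. Olfactory receptors gave -0.0419 and -0.035, -0.165 among those with a mean level of at least 6, and -0.12 to -0.085 without single arrays. The serine and folate enzymes ranged from 0.29 to 0.358 without single arrays. The number of arrays and the level, for dim genes, limit the precision.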
